A study of Mus musculus with 12 samples.

Results

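The rows of 10 interferon-inducible GTPase genes, of 55536 genes in the count table, were followed across the cultures: *Iigp1*, *Tgtp1*, *Tgtp2*, *Irgm1*, *Irgm2*, and *Igtp* of the immunity-related GTPase (IRG) family, and *Gbp2*, *Gbp3*, *Gbp7*, and *Gbp9* of the guanylate-binding protein (GBP) family. C2C12GFP cells, a mouse myoblast line that carries green fluorescent protein and fuses into myotubes, were differentiated on plates left uncoated (Control) or given a coat of Collagen I, of fibronectin, or of Geltrex™. Geltrex™ is a commercial basement membrane preparation, in which laminin is a main protein, so it differs from the other coatings in being a mixture. RNA-seq was available for 3 samples in each of the 4 groups, with 22520404 to 27351766 counts per sample. No other treatment or genotype separated the groups, all cells came from the same line, and the day on which RNA was taken is not given in the sources used here. The genes were selected by name with their measured values in these samples already known, so their levels and differences are given as a description, without p-values.

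IRG and GBP proteins are large GTPases that interferons switch on in most cell types through transcription factors that include the interferon regulatory factors (IRFs). They defend the cell from within: effector IRGs such as *Iigp1* and *Tgtp2* coat the vacuole around an invading parasite or bacterium, the regulators *Irgm1*, *Irgm2*, and *Igtp* sit on the cell's own membranes and hold the effectors inactive there, and GBPs gather on vacuoles and bacteria and promote the caspase-11 inflammasome. Interferons act on promoters through gamma-activated sequences (GAS) and through interferon-stimulated response elements (ISRE), which IRFs bind.

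The stretches just before the start of transcription are shown first because the members share motif letters there. RefSeq promoter windows on GRCm38.p6 were found for 8 of the 10 members, and not for *Iigp1* or *Gbp9*. Within 250 bases before the start, both strands were searched for GAAA, any 2 bases, and GAAA again, called ISRE-like here, and for TTCNNNGAA, called GAS-like. Capitals mark the matches, and each line is the 110 bases that end at the base before the start, 5′ to 3′ on the strand of the gene.
Gbp2, chr3:142620553-142620662, strand plus: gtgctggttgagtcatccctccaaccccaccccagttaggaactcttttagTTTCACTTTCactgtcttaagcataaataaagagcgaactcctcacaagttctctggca
Gbp3, chr3:142559934-142560043, strand plus: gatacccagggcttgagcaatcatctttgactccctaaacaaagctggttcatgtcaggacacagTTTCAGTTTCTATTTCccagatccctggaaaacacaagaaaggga
Gbp7, chr3:142530226-142530335, strand plus: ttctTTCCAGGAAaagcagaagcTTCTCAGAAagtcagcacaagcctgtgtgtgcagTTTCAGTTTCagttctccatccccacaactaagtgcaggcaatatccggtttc
Irgm1, chr11:48871421-48871530, strand minus: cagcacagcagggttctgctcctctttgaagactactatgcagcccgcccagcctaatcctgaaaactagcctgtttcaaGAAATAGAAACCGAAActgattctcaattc
Tgtp1, chr11:48992247-48992356, strand minus: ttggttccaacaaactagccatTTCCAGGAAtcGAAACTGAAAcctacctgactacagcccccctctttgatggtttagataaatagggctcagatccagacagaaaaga
Tgtp2, chr11:49064213-49064322, strand minus: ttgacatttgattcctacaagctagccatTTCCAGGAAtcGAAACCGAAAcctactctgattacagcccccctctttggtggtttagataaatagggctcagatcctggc
Igtp, chr11:58199446-58199555, strand plus: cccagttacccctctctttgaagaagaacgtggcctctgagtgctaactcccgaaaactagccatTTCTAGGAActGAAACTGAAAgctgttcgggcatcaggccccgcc
Irgm2, chr11:58214867-58214976, strand plus: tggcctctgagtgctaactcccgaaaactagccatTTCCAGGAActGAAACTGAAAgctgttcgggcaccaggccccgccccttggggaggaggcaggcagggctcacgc

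An ISRE-like match was present before all 8 genes and a GAS-like match before 5 of them, *Gbp7*, *Tgtp1*, *Tgtp2*, *Igtp*, and *Irgm2*. Of all 32851 RefSeq windows of the same length, 2.98% held an ISRE-like match and 7.02% a GAS-like match. Counted per gene, the shares were 3.46% and 8.13% of 27025 genes. The matches were not particular to the members. Of 9 other IRG, GBP, and very large GTPase genes with a window, 4 had an ISRE-like match and 3 a GAS-like match. *Gbp3* and *Irgm1* each carried 2 ISRE-like matches that overlapped each other, and *Gbp7* carried 2 GAS-like matches apart from its ISRE-like match. A second annotated start of *Gbp3*, further downstream, had neither. In *Tgtp1*, *Tgtp2*, *Igtp*, and *Irgm2*, the GAS-like match ended 2 bases before the ISRE-like match began, and in no member did a GAS-like match overlap an ISRE-like match. These 4 windows were also alike around the pair: the longest identical run was 55 bases between *Igtp* and *Irgm2*, 27 bases between *Tgtp1* and *Tgtp2*, and 11 to 20 bases between the other pairs. The matches describe letters only, since binding was not measured. The starts are those of RefSeq and can differ from the ends of the gene intervals given below. The windows of *Irgm1*, *Irgm2*, and *Tgtp1* lie inside those intervals. For *Gbp7*, *Tgtp2*, and *Irgm2*, the bases just after the start were not found in the transcripts of the gene annotation used here.

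**Figure D1:**
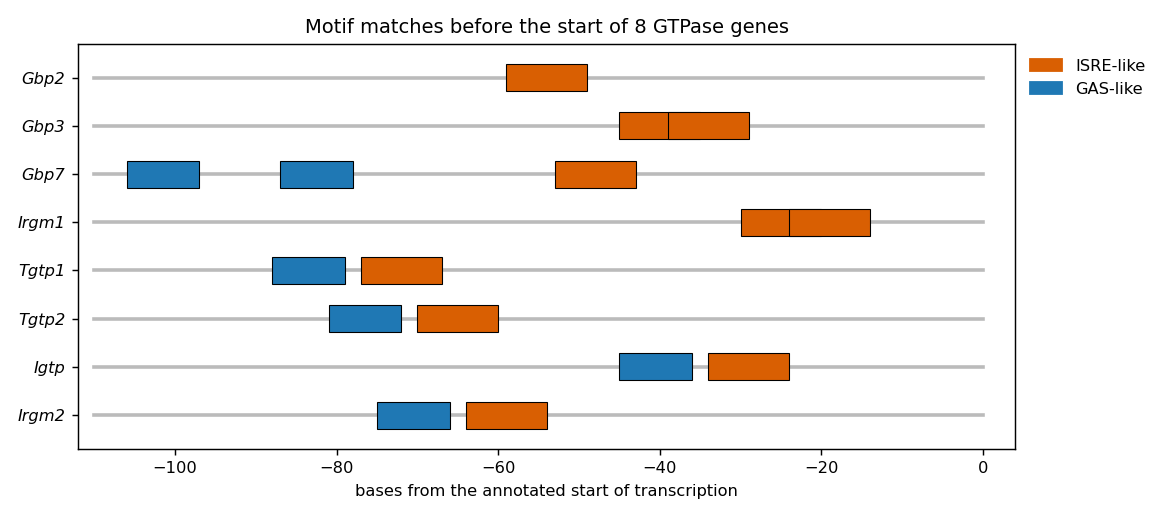
ISRE-like (orange) and GAS-like (blue) matches in the 110 bases before the RefSeq start of 8 genes, drawn to scale with the start at 0 on the x axis. All 8 genes carry an ISRE-like match, and in *Tgtp1*, *Tgtp2*, *Igtp*, and *Irgm2* a GAS-like match lies 2 bases upstream of it.

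Levels are given as CPM, which relate a gene's counts to the total of its library, with libraries scaled by the trimmed mean of M values. Of the 10 members, 9 passed the filter on low counts that left 14499 genes, and *Tgtp1* did not. *Iigp1* passed only through its counts on Geltrex™, so the filter favoured a difference in it. A member was counted as higher or lower where the fitted fold change was at least 2 and the samples of the groups did not overlap. By that rule, 9 of the 9 tested members were higher on Geltrex™ than in Control, 9 of 9 were higher than on Collagen I, and 8 of 9 were higher than on fibronectin. The same rule was met in the higher direction by 4.42%, 4.77%, and 2.97% of all genes tested, and nothing is read from the difference because the members were selected on these samples. The member at the edge was *Irgm1*, whose log2 difference from fibronectin was 0.98. The median log2 fold change of the 9 members was 2.82, 2.80, and 2.70 against Control, Collagen I, and fibronectin, where the medians of all genes were -0.012, -0.026, and 0.0049. Without *Iigp1*, the median of the other 8 was 2.76, 2.68, and 2.55. In these bulk samples, more cells that express a gene and more RNA per cell cannot be told apart.

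**Figure D2:**
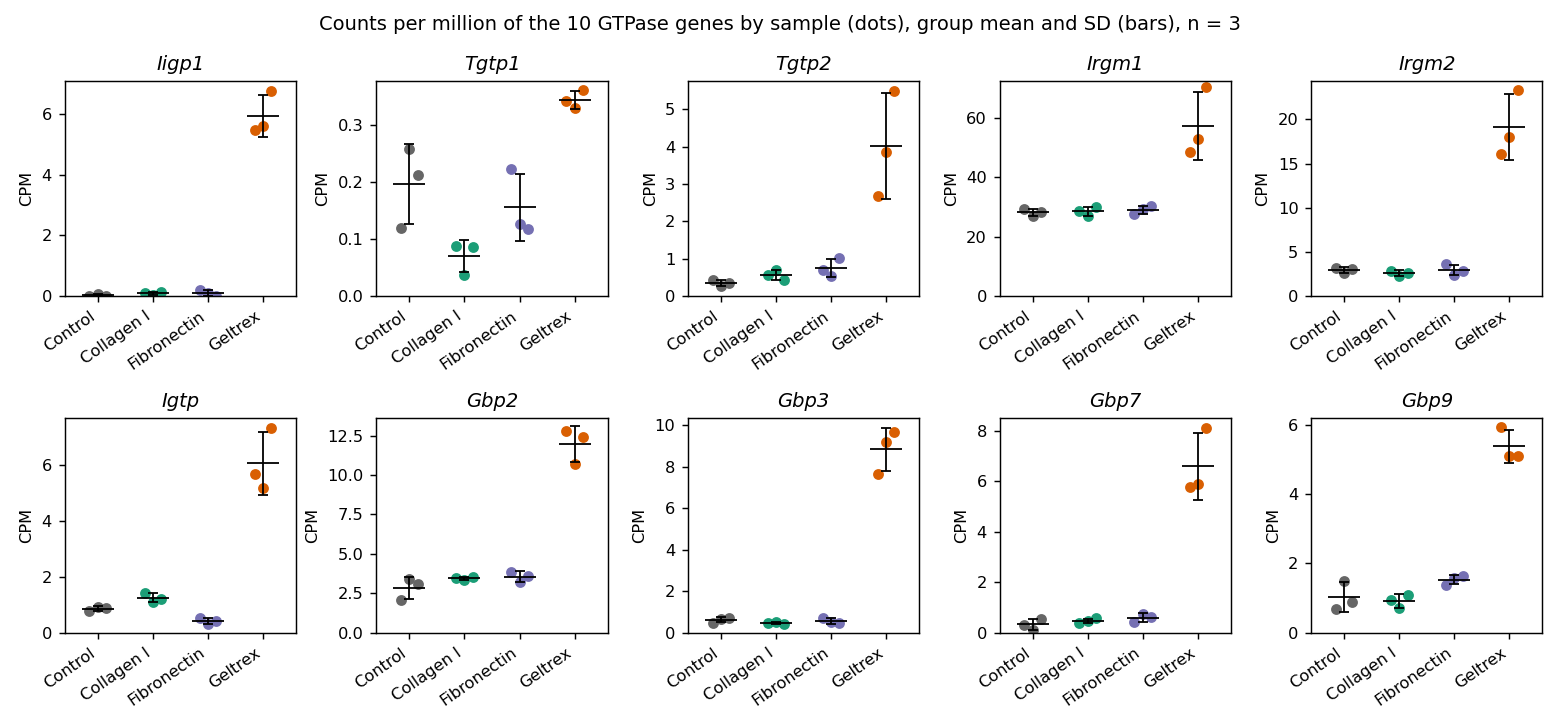
CPM of each of the 10 genes in every sample (dots) by group, with the group mean and SD (black bars, n = 3) on a linear axis from 0. In all 10 panels the 3 Geltrex™ samples lie above the 9 others, from 0.330 to 0.361 CPM for *Tgtp1* up to 48.6 to 70.4 CPM for *Irgm1*.

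Among the effector IRGs, *Iigp1* was close to absent outside Geltrex™. This gene (ENSMUSG00000054072, chr18:60376027-60392634, plus strand of GRCm38) encodes an IRG that loads onto pathogen vacuoles. Its raw counts were 0, 2, and 0 in Control, 2, 1, and 3 on Collagen I, 5, 2, and 0 on fibronectin, and 128, 136, and 150 on Geltrex™. All 3 Geltrex™ samples were thus far above the other 9, which overlapped one another. The ratio of depth-scaled summed counts was 225 against Control, with an exact 95% interval of 61.9 to 1864, 72.3 against Collagen I (32.9 to 198), and 64.8 against fibronectin (31.2 to 162). These intervals cover counting error only, since they rest on counts summed over the 3 samples of a group and leave out the spread between samples. Copies of the same molecule may also have been counted more than once.

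*Tgtp1* (ENSMUSG00000078922, chr11:48985327-48994172) and *Tgtp2* (ENSMUSG00000078921, chr11:49057194-49064206) are near-identical neighbours on the minus strand that encode T-cell-specific GTPases, another pair of vacuole-coating effectors. Of the distinct 100-base stretches of their transcripts, 70.3% in *Tgtp1* and 76.8% in *Tgtp2* occur in the other gene, so how their reads were shared out is uncertain. *Tgtp2* had 0.437, 0.257, and 0.340 CPM in Control, 0.563, 0.706, and 0.431 on Collagen I, 0.706, 0.544, and 1.01 on fibronectin, and 2.69, 3.87, and 5.50 on Geltrex™. It was the member with the widest relative spread among the Geltrex™ samples, and its log2 fold changes were 3.53 (SE 0.35), 2.80 (SE 0.32), and 2.40 (SE 0.31) against Control, Collagen I, and fibronectin.

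*Tgtp1* had 3, 7, and 5 counts in Control, 2, 1, and 2 on Collagen I, 6, 3, and 3 on fibronectin, and 8 in each Geltrex™ sample. The Geltrex™ samples were again the highest. The ratio was 1.74 against Control (counting interval 0.876 to 3.57), 5.03 against Collagen I (1.88 to 16.9), and 2.19 against fibronectin (1.05 to 4.81). Few counts limit these ratios. Their intervals leave out the spread between samples, so they are not read as tests. With the counts of both genes summed, the ratio was 8.03 (5.78 to 11.4) against Control, 6.75 (4.95 to 9.39) against Collagen I, and 4.74 (3.65 to 6.24) against fibronectin.

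The 3 regulators started from different levels. *Irgm1* (ENSMUSG00000046879, chr11:48861968-48871683, minus strand), needed for control of mycobacteria and for normal autophagy and mitochondria, was the only member above 20 CPM in every sample. It had 29.5, 27, and 28.2 CPM in Control, 28.5, 26.9, and 30.1 on Collagen I, 27.6, 29.3, and 30.4 on fibronectin, and 48.6, 52.9, and 70.4 on Geltrex™. The 9 samples off Geltrex™ lay within a narrow band, and its log2 fold changes of 1.02, 1.01, and 0.98 (SE 0.11 each) were the smallest among the tested members. Without Geltrex™ sample 3 they were 0.85, 0.84, and 0.80, under a 2-fold difference in all 3 comparisons.

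*Irgm2* (ENSMUSG00000069874, chr11:58199618-58222782, plus strand) has been tied to restraint of the caspase-11 response. It had 3.14, 2.57, and 3.06 CPM in Control, 2.86, 2.23, and 2.59 on Collagen I, 3.6, 2.39, and 2.80 on fibronectin, and 16.1, 18, and 23.3 on Geltrex™. Its fold changes were nearly the same whichever group Geltrex™ was set against, at 2.71, 2.90, and 2.70 on the log2 scale (SE 0.18 each).

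*Igtp* (ENSMUSG00000078853, chr11:58199556-58207591, plus strand), also called Irgm3, lies at the same locus and shares 162 exon bases with *Irgm2* on the same strand. Its CPM were 0.756, 0.917, and 0.892 in Control, 1.43, 1.11, and 1.21 on Collagen I, 0.520, 0.293, and 0.427 on fibronectin, and 5.68, 5.19, and 7.35 on Geltrex™. The 4 groups did not overlap, in the order fibronectin, Control, Collagen I, and Geltrex™. The log2 difference between Geltrex™ and fibronectin was therefore larger, 3.85 (SE 0.25), than that from Collagen I, 2.28 (SE 0.21), with Control in between at 2.82 (SE 0.22).

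The GBPs divide by location into *Gbp2*, *Gbp3*, and *Gbp7* in the cluster on chromosome 3 and *Gbp9* in that on chromosome 5. *Gbp2* (ENSMUSG00000028270, chr3:142620602-142638008, plus strand) is a lipid-modified GBP recruited to parasite vacuoles and bacteria. It had 2.07, 3.38, and 3.06 CPM in Control, 3.47, 3.34, and 3.54 on Collagen I, 3.86, 3.18, and 3.61 on fibronectin, and 12.8, 10.7, and 12.4 on Geltrex™. After *Irgm1* it had the smallest differences of the tested members, with log2 fold changes of 2.07, 1.79, and 1.75 (SE 0.16 each).

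*Gbp3* (ENSMUSG00000028268, chr3:142560026-142573209, plus strand) had 0.477, 0.660, and 0.722 CPM in Control, 0.477, 0.483, and 0.388 on Collagen I, 0.706, 0.502, and 0.466 on fibronectin, and 7.65, 9.19, and 9.65 on Geltrex™. Its log2 fold changes were 3.82 (SE 0.21), 4.28 (SE 0.23), and 3.96 (SE 0.22). *Gbp7* (ENSMUSG00000040253, chr3:142530342-142550149, plus strand), which has been linked to assembly of the phagocyte oxidase, had 0.318, 0.110, and 0.552 CPM in Control, 0.390, 0.446, and 0.561 on Collagen I, 0.409, 0.754, and 0.621 on fibronectin, and 5.77, 5.89, and 8.12 on Geltrex™. *Gbp7* shares 11.3% of its exon bases with *Gm43802*, which had 0 counts. Both members were under 1 CPM in each of the 9 other samples and above 5 CPM on Geltrex™. For *Gbp7* the log2 fold changes were 4.35 (SE 0.34), 3.81 (SE 0.32), and 3.47 (SE 0.31).

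*Gbp9* (ENSMUSG00000029298, chr5:105077630-105139539, minus strand) had 0.676, 1.5, and 0.892 CPM in Control, 0.953, 0.706, and 1.08 on Collagen I, 1.37, 1.59, and 1.63 on fibronectin, and 5.94, 5.11, and 5.10 on Geltrex™. It shares 60 exon bases each with *Gbp8* and *Gbp4* on the same strand. The fibronectin samples were all above the Collagen I samples and overlapped those of Control. Its log2 fold changes were 2.37 (SE 0.25) against Control, 2.56 (SE 0.25) against Collagen I, and 1.81 (SE 0.23) against fibronectin.

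**Figure D3:**
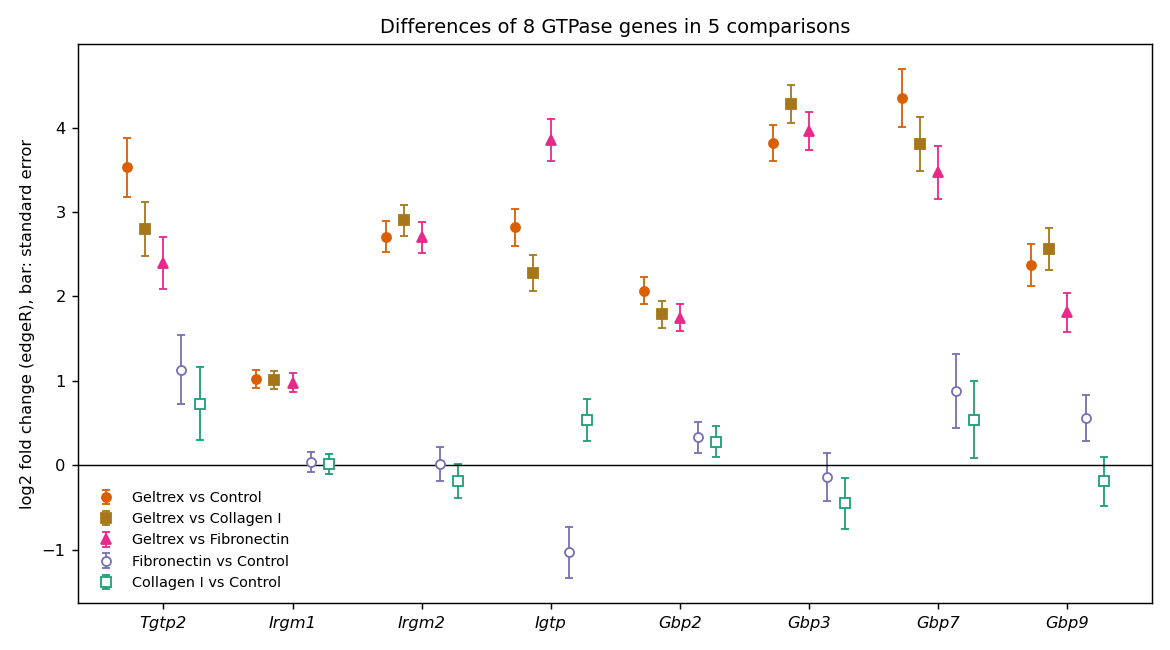
Fitted log2 fold changes (y axis) with standard errors of 8 members in the 3 Geltrex™ comparisons (filled) and in fibronectin and Collagen I against Control (open). *Iigp1* is left out because its fitted values rest on at most 7 counts in each group outside Geltrex™ and on the prior count. The filled points run from 0.98 for *Irgm1* to 4.35 for *Gbp7*, and the open points lie between -1.03 for *Igtp* and 1.13 for *Tgtp2*.

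Fibronectin and Collagen I differed from Control in few members. On fibronectin *Tgtp2* met the rule upward, with a log2 fold change of 1.13 (SE 0.41), and *Igtp* met it downward, at -1.03 (SE 0.30). That is 2 of 9 members, where 7.03% of all genes met the rule in either direction. With *Tgtp1* and *Tgtp2* summed, the ratio of fibronectin to Control was 1.69 (1.14 to 2.55), under 2-fold, so *Tgtp2* met the rule only with its reads counted apart from those of *Tgtp1*, whose own ratio was 0.794 (0.339 to 1.82). On Collagen I no tested member met it against Control, with 0.793% of all genes, and *Igtp* alone had all 3 samples above Control, by 0.54 (SE 0.25). Between Collagen I and fibronectin, *Igtp* alone of the tested members met the rule, at 1.57 (SE 0.29), beside 8.88% of all genes. The log2 difference of *Gbp9*, -0.75 (SE 0.28), was under 2-fold with no overlap. The median of the 9 members was 0.33 for fibronectin against Control, 0.28 for Collagen I against Control, and -0.20 for Collagen I against fibronectin.

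Divided by exon length, the members covered a wide range on Geltrex™. *Irgm1* was the highest, with 9.86 ± 1.99 CPM per kilobase (SD, n = 3). *Irgm2* followed with 5.18 ± 1.01 and *Gbp2* with 4.75 ± 0.452, which did not differ beyond their spread. *Igtp* with 3.0 ± 0.560 and *Gbp3* with 2.70 ± 0.321 formed the next pair and likewise did not differ beyond their spread. *Tgtp2* with 1.37 ± 0.480, *Gbp7* with 1.17 ± 0.236, *Gbp9* with 1.04 ± 0.0932, and *Iigp1* with 1.02 ± 0.122 could not be ordered, and *Tgtp1* was lowest with 0.107 ± 0.00490. In Control, *Irgm1* was also the highest, with 4.86 ± 0.213 CPM per kilobase, followed by *Gbp2* with 1.13 ± 0.271 and *Irgm2* with 0.792 ± 0.0840. *Iigp1*, at 0.00420 ± 0.00727 CPM per kilobase, was the lowest there.

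**Figure D4:**
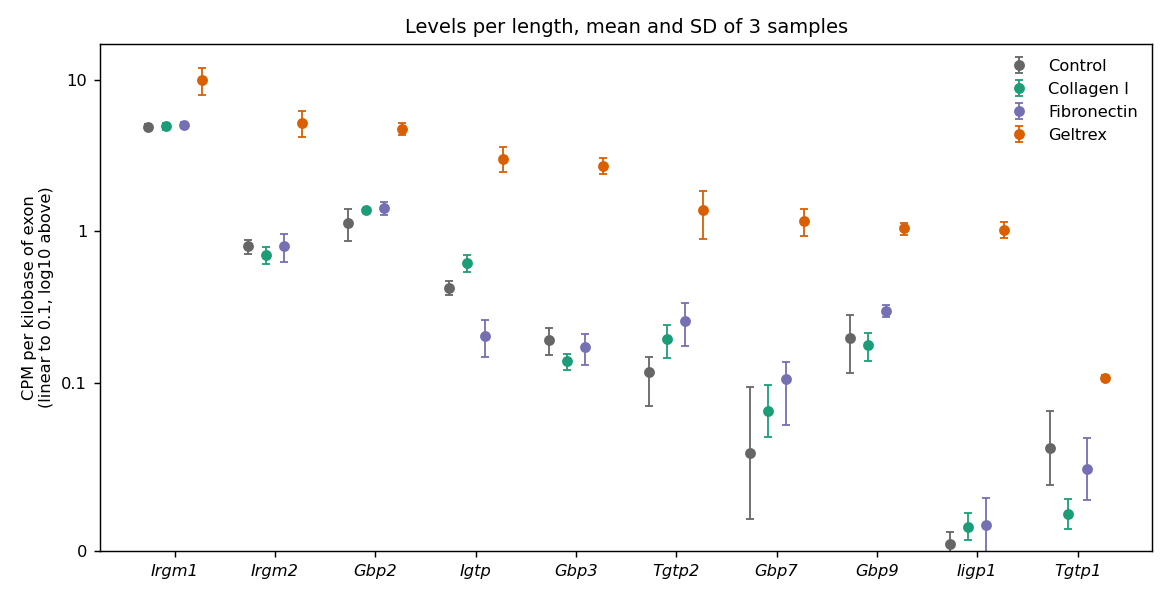
CPM per kilobase of exon (mean and SD of 3 samples) of the 10 members in the 4 groups, with a y axis that is linear up to 0.1 and log10 above. The members are ordered by their level on Geltrex™, from 9.86 for *Irgm1* to 0.107 for *Tgtp1*, and *Iigp1* has the widest gap between Geltrex™ and the other groups.

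The members' likeness over all samples came mainly from the Geltrex™ samples. Over the 12 samples, the Pearson correlations of log2 CPM between the 9 tested members, in 36 pairs, had a median of 0.929 and a lowest value of 0.754. Over the 9 samples off Geltrex™ the median was 0.0371, with values from -0.630 to 0.587, and 19 of the 36 were over 0. The points share libraries, and the correlation over 12 samples mostly restates the gap between Geltrex™ and the rest. Geltrex™ sample 3 had the highest CPM of its group for 8 of the 10 members, while *Gbp2* and *Gbp9* were highest in sample 1.

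The other IRG, GBP, and very large GTPase genes were read from a list of 22 relatives, of which 14 were tested. This list and those below were written with earlier results of these samples known, so their counts of DEGs describe the lists and do not test them. Here DEGs are genes with an adjusted p of at most 0.05 by edgeR's quasi-likelihood test and at least a 2-fold difference. Of the relatives, 11 were DEGs and higher on Geltrex™ than in Control, 9 were higher than on Collagen I, and 9 were higher than on fibronectin, and none was lower. Among all genes tested, 4.15%, 4.56%, and 2.26% were DEGs in the higher direction and 4.99%, 4.77%, and 1.72% in the lower direction. *Gm4951*, *Gbp5*, *Gbp10*, and *Gvin1* passed the filter on low counts only through their Geltrex™ samples, so the filter favoured a difference in them, as for *Iigp1*. Of the other 10 relatives, 7, 5, and 5 were DEGs, where 3.65%, 4.08%, and 1.88% of the genes that did not depend on Geltrex™ to pass were DEGs in the higher direction, and their median log2 fold changes were 1.58, 1.02, and 0.75. The median over all 14 was 1.78, 1.41, and 1.24, or 1.77, 1.42, and 1.25 with the 2 that had at most 3 counts in a group set to that floor. Nothing in the sources used here says that the 3 samples of a group came from separate cultures, so these p-values measure only the spread between the samples.

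*Gbp2b*, the mouse Gbp1 gene next to *Gbp2*, rose from 2.51 ± 0.712 CPM in Control to 8.33 ± 0.619 on Geltrex™ (SD, n = 3), a log2 fold change of 1.73 (edgeR adjusted p = 5.43e-06, SE 0.20). *Gbp4* of the chromosome 5 cluster rose by 2.34 log2 units (adjusted p = 7.94e-05, SE 0.35), and its neighbour *Gbp8* by 1.33 (adjusted p = 0.00084, SE 0.26). The IRG gene *Ifi47*, also called Irgd, rose by 2.28 log2 units (adjusted p = 1.05e-05, SE 0.27), and *Gm4070*, of the very large GTPases, by 1.82 (adjusted p = 3.16e-05, SE 0.24). Each of these 5 was also higher on Geltrex™ than on fibronectin as a DEG, whereas *9930111J21Rik1* was not. *9930111J21Rik1* had 0.813 ± 0.101 CPM in Control, 1.27 ± 0.0910 on Collagen I, 3.11 ± 0.682 on fibronectin, and 2.66 ± 0.340 on Geltrex™, and it rose on fibronectin by 1.92 log2 units (adjusted p = 1.55e-05, SE 0.23). It was the only relative that was a DEG on fibronectin against Control, where 6.66% of all genes were. On Collagen I, 0 relatives were DEGs against Control by edgeR or DESeq2, with 2 at an unadjusted p under 0.05, where 0.131% of all genes were. Between fibronectin and Collagen I, *9930111J21Rik1* was the only DEG among them, lower on the latter with a log2 fold change of -1.29, where 8.46% of all genes were DEGs in either direction.

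The 10 genes were put forward as a readout of interferon gamma-type induction, so the interferons, their receptors, and other targets were read beside them. Of 20 interferon genes, 14 had no count in any sample and none passed the filter. *Ifng*, which encodes interferon gamma, had 0, 1, and 3 counts in Control, 8, 3, and 7 on Collagen I, 0, 1, and 6 on fibronectin, and 8, 5, and 11 on Geltrex™, so the Geltrex™ and Collagen I samples overlapped. *Ifnb1*, which encodes interferon beta, had 1 count in total, in a Geltrex™ sample.

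Transcripts of both chains of the interferon gamma receptor were present in all groups. *Ifngr1*, the ligand-binding chain of the interferon gamma receptor, had 49.6 ± 2.12 CPM in Control and 56.1 ± 3.69 on Geltrex™ (SD, n = 3), a log2 difference of 0.18 (edgeR adjusted p = 0.138). *Ifngr2*, its signalling chain, was lower on Geltrex™, with 34.8 ± 0.199 against 49.6 ± 0.905 CPM, a log2 fold change of -0.51 (adjusted p = 8.52e-05, SE 0.076), which is under 2-fold.

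Of 21 tested receptor and signalling genes, 4 were DEGs upward and 1 downward on Geltrex™ against Control, 4 and 1 against Collagen I, and 3 and 0 against fibronectin. Upward DEGs made up 4.15%, 4.56%, and 2.26% of all genes tested, and downward DEGs 4.99%, 4.77%, and 1.72%. *Irf9*, a DNA-binding factor of type I interferon signalling, rose by 1.27 log2 units (adjusted p = 4.77e-06, SE 0.14), and *Irf7*, which amplifies type I interferon production, by 3.01 (adjusted p = 6.84e-07, SE 0.28). *Ptpn6*, a phosphatase of leukocytes above all, rose by 1.59 log2 units (adjusted p = 0.0432, SE 0.57) from a level of 0.159 ± 0.110 CPM, but it passed the filter only through its Geltrex™ samples and was not a DEG by DESeq2. *Irf1*, the factor induced most directly by interferon gamma, went the other way, from 32.3 ± 2.46 to 22.7 ± 1.29 CPM, a log2 fold change of -0.51 (adjusted p = 0.000448, SE 0.092) that is under 2-fold. *Socs3*, an inhibitor of JAK signalling, fell by 1.48 on the log2 scale (adjusted p = 2.93e-06, SE 0.16). In the comparison with Collagen I, the 5 DEGs of this list became 1, *Irf7*, without Geltrex™ sample 3, and 3 without Collagen I sample 3.

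Of 18 genes known to respond more to interferon gamma, only 6 passed the filter, and 2, 3, and 2 of them were DEGs, all higher, on Geltrex™ against Control, Collagen I, and fibronectin. In that direction, 4.15%, 4.56%, and 2.26% of all genes tested were DEGs. *Irf1*, given above among the signalling genes, is also 1 of these 6. It was lower in all 3 comparisons, with log2 fold changes of -0.51, -0.69, and -0.59. These were under 2-fold (edgeR adjusted p = 0.000448, 2.75e-05, and 0.00027). *Ifi47*, given above as a relative, was higher in all 3. *Serpina3g*, a serine protease inhibitor, was higher in all 3 as well. Its counts were 0, 0, and 1 in Control, 0, 1, and 0 on Collagen I, 0 in each fibronectin sample, and 36, 33, and 26 on Geltrex™ (adjusted p = 9.54e-06 against Control). It too was tested only because of its Geltrex™ counts, and without it 1, 2, and 1 of 5 genes were DEGs. *Upp1*, uridine phosphorylase, was a DEG only against Collagen I, by 1.05 log2 units (adjusted p = 0.00682, SE 0.27). *Ciita*, the master regulator of MHC class II, had 3, 5, and 1 counts in Control and 4, 0, and 0 on Geltrex™, and *Cd74*, the invariant chain, had 0, 1, and 0 in Control and 0, 3, and 9 on Geltrex™. The class II genes *H2-Aa*, *H2-Ab1*, and *H2-Eb1* of that list had no count in any sample.

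Of 23 genes known to respond more to type I interferons, 19 were tested, and 18 of 19 were DEGs and higher on Geltrex™ in each of the 3 comparisons, with *Ifit2* the exception in all 3. The share of all genes tested that were DEGs in the higher direction was 4.15%, 4.56%, and 2.26%. Like the other lists, this one was written with earlier results of these samples known, so its count is a description. It also holds *Irf7*, already counted among the signalling genes. *Isg15*, *Oas1a*, *Oas2*, *Oas3*, *Usp18*, *Ifi44*, and *Ddx60* passed the filter only through their Geltrex™ samples, which likewise favoured their calls. Of the other 12 genes, 11 were DEGs in each comparison, with median log2 fold changes of 2.87, 2.5, and 3.33, against 0.24, 0.29, and 0.21 for the 5 such gamma-leaning genes. Of all genes that did not depend on Geltrex™ to pass, 3.65%, 4.08%, and 1.88% were DEGs in the higher direction. With all tested genes, the median log2 fold change was 3.66, 3.22, and 3.69, against 0.49, 0.67, and 0.25 for the 6 gamma-leaning genes, and the difference between the lists was not tested. The gamma-leaning list leaves out the 10 members, and most of its 18 genes had too few counts to be tested. The type of interferon is therefore not read from these medians. The median of the type I-leaning list was the same with the 4 genes that had at most 3 counts in a group set to that floor. *Ifit1*, a sensor of foreign RNA caps, rose from 0.464 ± 0.345 CPM in Control to 26.4 ± 9.44 on Geltrex™ (SD, n = 3), a log2 fold change of 5.86 (adjusted p = 2.28e-08, SE 0.39), and *Oasl2*, of the oligoadenylate synthetase family, rose by 4.32 log2 units (adjusted p = 4.25e-09, SE 0.23). *Ifit3* rose by 3.08 log2 units (adjusted p = 1.14e-08, SE 0.19). The RNA helicase sensors *Ifih1* and *Ddx58* rose on the log2 scale by 2.76 (adjusted p = 3.41e-08, SE 0.19) and 1.40 (adjusted p = 4.04e-07, SE 0.12), and *Xaf1* by 1.29 (adjusted p = 1.88e-06, SE 0.13). On fibronectin and on Collagen I, 0 of the 19 were DEGs against Control by edgeR, 7 and 4 had an unadjusted p under 0.05, and DESeq2 called 1 (lower) and 0. Over all genes tested, 6.66% and 0.131% were DEGs there in either direction, so nothing is read from the 0 in either group. Between Collagen I and fibronectin, 2 of the 19 were DEGs by edgeR and 2 by DESeq2, all higher on Collagen I. Of all genes tested, 8.46% were DEGs there in either direction, so nothing is read from that count either.

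**Figure D5:**
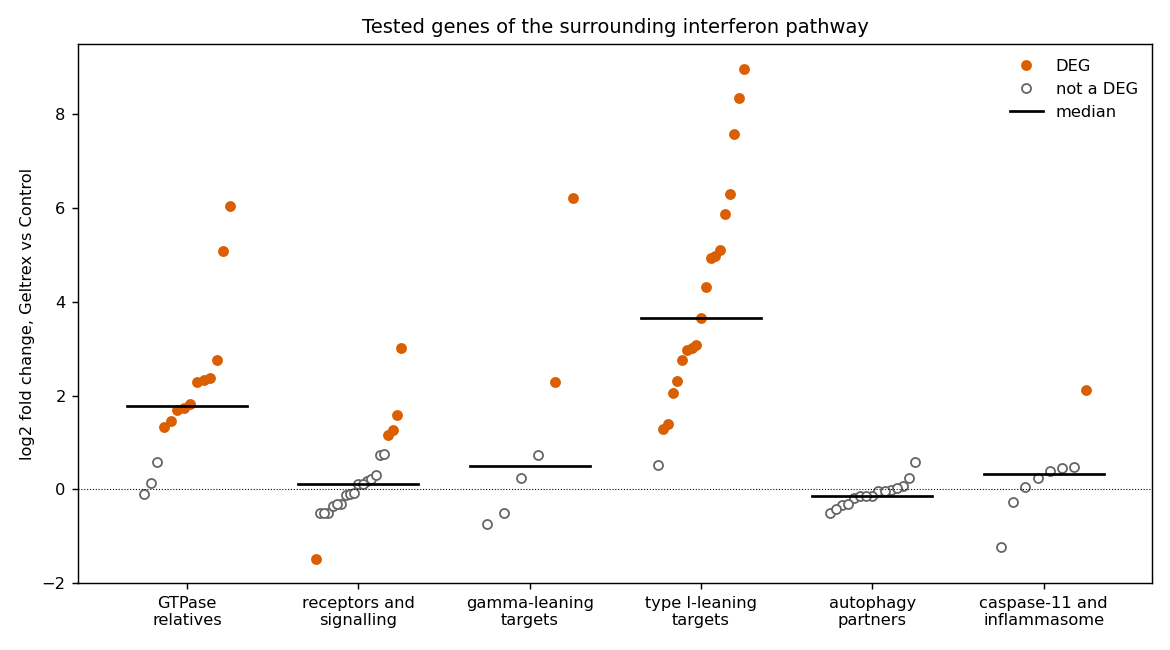
Log2 fold change of Geltrex™ against Control (y axis) for each tested gene of 6 lists around the members, with DEGs in orange, other genes open, and the list median as a line. Genes that passed the filter only through Geltrex™ are included, 4 of the relatives, 1 of the signalling genes, 1 of the gamma-leaning, and 7 of the type I-leaning genes. In the type I-leaning list 18 of 19 genes are DEGs above 0, in the gamma-leaning list 2 of 6, and in the autophagy list none. Of all genes tested, 4.15% are DEGs above 0 and 4.99% below.

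The partner genes through which these GTPases act were read beside the share of DEGs among all genes tested. That share was 4.15%, 4.56%, and 2.26% in the higher direction and 4.99%, 4.77%, and 1.72% in the lower. Of 15 autophagy genes, which include the Atg5 conjugation system that places IRGs and GBPs on vacuoles, 0 were DEGs in each Geltrex™ comparison by edgeR or DESeq2, with 6, 8, and 6 at an unadjusted p under 0.05 and median log2 fold changes of -0.13, -0.10, and 0.019. By edgeR's adjusted p without the 2-fold threshold, 2, 2, and 2 were higher and 4, 4, and 0 lower. Of the 8 tested genes of the caspase-11 and inflammasome list, 1 was a DEG in each comparison, *Zbp1*, a sensor of Z-form nucleic acid. In lists this short, a count of 0 or 1 is near what those shares give, so nothing is read from it. *Zbp1* rose from 0.601 ± 0.172 CPM in Control to 2.59 ± 0.184 on Geltrex™ (SD, n = 3), a log2 fold change of 2.11 (adjusted p = 1.8e-05, SE 0.27).

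Markers of other cells and of differentiation were read beside these values. Of 10 leukocyte markers, 3 were at 0 in all samples, *Ptprc*, the pan-leukocyte CD45 gene, had 1 count in total, and the summed level lay between 0.770 and 1.75 CPM in Control and between 1.45 and 1.85 CPM on Geltrex™. The cultures expressed all 8 myotube markers, and all 8 were lower on Geltrex™ than in Control with no overlap, 7 of them as DEGs and *Des*, desmin, by less than 2-fold (log2 fold change -0.28, adjusted p = 0.0132). Their summed level was 3338 to 3618 CPM on Geltrex™, 2429 to 2818 CPM on fibronectin, 7646 to 8584 CPM in Control, and 8148 to 8380 CPM on Collagen I. Of all genes tested, 4.99% were DEGs and lower on Geltrex™ than in Control, and 6.66% were DEGs on fibronectin against Control in either direction. Fibronectin cultures, in which 7 of the 8 were also DEGs and lower than in Control and *Des* had a log2 fold change of -0.65 (adjusted p = 1.66e-05), had the member levels given above, with all 10 below those on Geltrex™, and the part of differentiation in the member levels was not tested. Of 4 endothelial markers 1 was tested, *Tek*, which was lower on Geltrex™ than in Control, and of 4 fibroblast and adipogenic markers 3 were tested, none of them a DEG against Control.

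The genes outside the 10 whose log2 CPM was most like the mean z-score of the members over the 12 samples were *Atf3*, *Ccn2*, *C3*, *Oas2*, *Plk2*, *Parp14*, *Lgals3bp*, *Per1*, *Dusp4*, and *Srf*, with Pearson r from 0.991 to 0.981 among 12311 candidates. *Oas2* had 0.0142 ± 0.0245 CPM in Control and 5.94 ± 1.53 on Geltrex™, and *C3*, complement component 3, went from 1.05 ± 0.188 to 361 ± 40.5 CPM (SD, n = 3). *Atf3*, a stress-response factor, went from 4.35 ± 0.465 to 65.6 ± 2.05 CPM, and *Ccn2*, connective tissue growth factor, from 96.9 ± 5.18 to 548 ± 32.3 CPM. The likeness rested on the Geltrex™ samples, since within the 9 others r ran from -0.278 to 0.558, and 188 candidates had r over 0.9. With Spearman's rho as the measure, 0 of these 10 genes were among the 10 most alike.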

How the data were processed

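RNA-seq libraries of 12 samples, 3 in each of 4 groups, were examined. The authors deposited raw counts per gene, neither normalized nor pooled, which per the labels and methods came from Trimmomatic, HISAT2, and featureCounts. The genome build, strand setting, and handling of multiply mapped reads are not given in the sources used here. All 55536 gene IDs were found in GENCODE M21 (GRCm38), which gave names, positions, and exon lengths, and promoter windows came from RefSeq on GRCm38.p6.

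Fits used R 4.3.3 with edgeR 4.0.16. The filter was filterByExpr (minimum count 10, minimum total 15), which left 14499, libraries were scaled by TMM, and a quasi-likelihood model of all 12 samples with 8 residual degrees of freedom gave 6 comparisons, with Benjamini-Hochberg adjustment over all genes. The standard error is the log2 fold change divided by the root of the F statistic. A DEG needed adjusted p at or under 0.05 and 2-fold or more. Log2 CPM used a prior count of 2. Ratios of few counts have exact 95% intervals. Tests were tried on simulated counts first.

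The members and all gene lists were chosen with earlier results of these data known. All 10 members are named. From each list, the DEGs of a Geltrex™ comparison are named or, beyond 6, the 6 with the largest mean CPM, plus *Ifng*, *Ifnb1*, *Ifngr1*, *Ifngr2*, *Irf1*, *Ciita*, and *Cd74*, and the 10 genes with the highest Pearson r to the members among genes with at least 1 CPM. Class II genes at 0, genes that passed the filter only through Geltrex™ (fewer than 3 of the 9 other samples at the minimum count, scaled by depth), *Ifit2*, *Ptprc*, *Tek*, and *Des* are named after their values were seen. The values of 1 further gene of the signalling list are not reported here. *Gvin2* and *Gvin3* of the relatives had no match in the table. Alternatives were DESeq2 1.42.0, RLE scaling, no filter, at least 10 counts in every sample, only the samples compared, a replicate block, each sample left out, and *Tgtp1* and *Tgtp2* summed. Samples of 1 group differed by more than counting noise (chi-square per degree of freedom at least 2.181), so none was counted as a duplicate.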

Additional observations from a re-analysis of the deposited data

How the results depend on the processing

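The member median for Collagen I against Control, 0.28, changed sign in 1 alternative, and the other member medians kept theirs. Of 660 alternative values for 33 results (DEG counts, list counts, and member medians), 626 stayed close to the main value. Close meant within 1.5 times for counts. For member medians it meant a shift smaller than the pooled SD between samples of the groups compared. The results include the count of interferon genes in each Geltrex™ comparison. No interferon gene passed the filter, so the agreement of those counts at 0 mostly restates the filter. Requiring at least 10 counts in every sample, which leaves 4 members and drops genes absent off Geltrex™, gave 851, 855, and 361 DEGs for Geltrex™ against Control, Collagen I, and fibronectin (from 1325, 1352, and 577) and 790 for Collagen I against fibronectin (from 1226). It gave 5, 4, and 4 relatives, 8, 8, and 8 type I-leaning genes, 1 gamma-leaning gene against Control and 1 against fibronectin, 3 signalling genes against Collagen I, 0, 0, and 0 caspase-11 and inflammasome genes, and member medians of 2.21, 2.16, and 1.79, with -0.094, the changed sign, for Collagen I against Control. With no filter, *Ifng* was 1 DEG against Control (log2 fold change 2.60, edgeR adjusted p = 0.0204) but not against Collagen I (adjusted p = 0.728) or fibronectin (adjusted p = 0.132), and the caspase-11 and inflammasome list had 2 DEGs against Collagen I and 2 against fibronectin, *Pycard* being added. Collagen I against Control had 19 DEGs, 43 with no filter, 10 with only the samples compared, and 10 to 25 with a sample left out (12 without Collagen I sample 1, 10 without Collagen I sample 2).

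Leaving out a sample gave 1 to 5 signalling genes against Collagen I and, without fibronectin sample 3, 2 in place of 1 caspase-11 and inflammasome genes against fibronectin (range 1 to 2). After the data were seen, the Geltrex™ samples, which differed less from each other (chi-square per degree of freedom 2.181 to 4.536) than other groups' samples did (7.709 to 64.57), were summed into 1. That gave 353 DEGs and 5 relatives against fibronectin, 2 caspase-11 and inflammasome genes against Collagen I, and 10 DEGs for Collagen I against Control. The cause of these shifts was not tested. With the replicate block, DEG counts were 1325, 1351, 575, 969, 18, and 1240, and member medians were 2.81, 2.76, and 2.70 on Geltrex™. Same-numbered samples did not deviate together in every pair of any comparison, so the numbers were not taken as pairing. Few counts limit the precision of *Iigp1*, *Tgtp1*, and *Ifng*: the fitted value of *Iigp1* against Control ran from 7.07 to 10.18, while *Tgtp2* with *Tgtp1* added was 3.0 in place of 3.53.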
